A study of Mus musculus with 6 samples.

Results

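The glycolytic enzymes of the liver were followed through the pathway from hexokinase to lactate dehydrogenase in male pups with and without an activated human SRY transgene. Named for this purpose were 10 genes, Hk2, Gpi1, Pfkl, Aldoa, Tpi1, Gapdh, Pgk1, Pgam1, Pkm2 and Ldha, and every probe of the liver array table carrying one of these symbols was taken. This gave 11 probes of 8 genes among the 25697 probes and 18138 symbols of the table. No probe stood under Hk2 or Gpi1, so these 2 genes were not analysed here. Pkm2 is the name in the table for the gene now called Pkm.

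Liver RNA came from male pups at postnatal day 6 on the FVB/N background (FVB in the labels), with 3 arrays of hSRY-ON and 3 of hSRY-OFF animals. All carried the Signalox-hSRY cassette, present as a single copy at the H11 locus, in which the broadly active CAG promoter stands before a floxed red fluorescent reporter. In hSRY-OFF pups this cassette was intact and human SRY silent. In hSRY-ON pups a Cre recombinase from the Ddx4-Cre line, supplied through the mother's oocyte, had removed the reporter in the early embryo. CAG then drove FLAG-tagged human SRY together with EGFP, globally by the paper's account and not in a chosen cell type. The paper shows the SRY protein in brain, heart, lung and liver. The hSRY-ON pups used for the arrays had not inherited Ddx4-Cre itself. The paper reports that hSRY-ON pups suckled little, lacked milk in the stomach, grew slowly, developed fatty liver and died early. Feeding state and illness thus go with the group, and their part in the values below was not tested. SRY is the Y-linked transcription factor that starts testis development, and all of these males also carried their own mouse gene.

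Glycolysis splits glucose into pyruvate in the cytosol, gaining ATP and NADH, and lactate dehydrogenase can reduce the pyruvate to lactate so that the pathway runs on without oxygen. Adult hepatocytes use their own forms of some of these enzymes, such as the L-type pyruvate kinase of Pklr, whereas Aldoa and the M-type pyruvate kinase are prominent in other tissues and in growing cells. Ldha supplies the main lactate dehydrogenase subunit of liver as well. Many of these genes are known targets of the hypoxia-inducible factors and of Myc.

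The arrays were alike in depth. Each detected between 10318 and 10762 probes at a detection p under 0.01, and the median intensity before normalization lay between 147 and 165. Correlations of log2 intensity over the tested probes were 0.987 to 0.992 between hSRY-OFF arrays, 0.965 to 0.982 between hSRY-ON arrays and 0.912 to 0.939 across groups. The number of arrays limits the precision. Values below are log2 normalized intensities, differences are hSRY-ON minus hSRY-OFF on that scale, and adjusted p-values are from limma with Benjamini-Hochberg correction over all 10734 tested probes.

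Of the 10 member probes that passed the filter on dim signals, 8 were higher in hSRY-ON liver, against 15.8% of all tested probes, and 0 were lower, against 17.3% (33.1% in either direction). The 8 probes represent 6 genes, Pfkl, Aldoa, Tpi1, Gapdh, Pgam1 and Pkm2. Their differences ran from 0.49 to 2.13, or 1.4-fold to 4.37-fold, with adjusted p-values from 0.000185 to 0.0249. At least 2-fold higher were 5 of them, against 5.24% of all tested probes. Ldha and the dim one of the Pfkl probes did not pass, and the Pgk1 probe was too dim to be tested. The median difference of the 10 tested probes was 1.12 (2.17-fold), and that of all tested probes was 0.02, with the middle 95% between -1.6 and 1.38. Since the filter lets a probe in through either group, these counts describe the probes that passed and not the whole list. Among the 2951 tested probes with a mean intensity of at least 1000, 18% were higher.

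**Figure D1:**
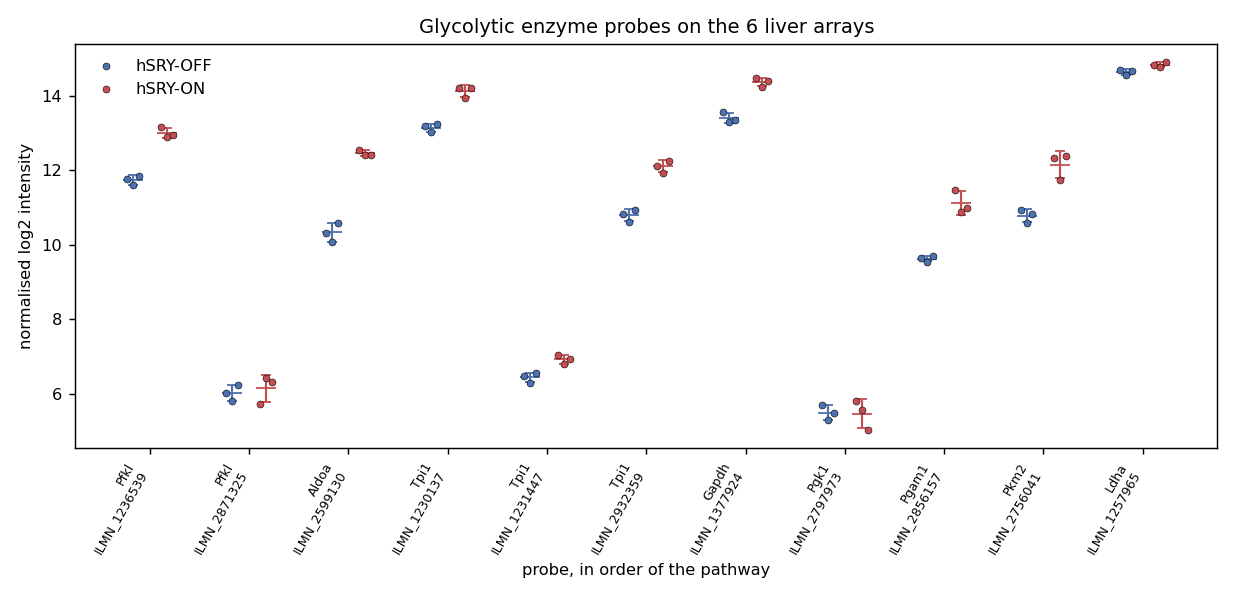
Log2 normalized intensity of the 11 probes of glycolytic enzymes, in pathway order, on each of the 3 hSRY-OFF and 3 hSRY-ON arrays, with the mean and SD of each group. The groups are apart on 9 of the 10 tested probes, Ldha by the narrow gap of 0.09, and they overlap on the dim Pfkl probe. On all 9 hSRY-ON lies above, as on 25.4% of all tested probes, while 24.6% have hSRY-ON below. The Pgk1 probe lies at the background in both groups.

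Phosphofructokinase commits the sugar to glycolysis, and Pfkl encodes its liver subunit. The bright Pfkl probe, ILMN_1236539, read 11.77, 11.59 and 11.85 on the hSRY-OFF arrays and 13.15, 12.89 and 12.94 on the hSRY-ON arrays. Every hSRY-ON array lay above every hSRY-OFF array, with a gap of 1.04 between the groups. The group means were 11.74 ± 0.13 and 12.99 ± 0.14 (SD, n = 3 arrays each), a difference of 1.26 ± 0.13 (SE), or 2.39-fold, with a limma adjusted p of 0.00077. The second probe, ILMN_2871325, was close to the background, with deposited intensities between 182.2 and 205.8, and read 6.01, 5.80 and 6.23 against 5.73, 6.41 and 6.30. On it the groups overlapped, and its difference of 0.13 (95% interval -0.35 to 0.62, adjusted p = 0.652 by limma) had the opposite sign when arrays were scaled on reference genes. The probes of Pfkl thus disagreed, and only the bright one carries the higher value.

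Aldolase cleaves fructose bisphosphate into its pair of triose phosphates, and Aldoa encodes the form of muscle and of most growing tissues. Its probe, ILMN_2599130, showed the largest difference of the members. It read 10.32, 10.08 and 10.58 on the hSRY-OFF arrays and 12.55, 12.41 and 12.40 on the hSRY-ON arrays. The hSRY-ON arrays were close together and lay at least 1.82 above any hSRY-OFF array. The means of 10.33 ± 0.25 and 12.45 ± 0.08 (SD, n = 3 each) differed by 2.13 ± 0.15 (SE), which is 4.37-fold (95% interval 3.41 to 5.6), with a limma adjusted p of 0.000185. The deposited intensities, before any background was removed, were 1538.9, 1343.3 and 1423.0 in hSRY-OFF and 6316.8, 5333.0 and 4687.7 in hSRY-ON, a ratio of 3.79 between the means. A larger positive difference was found for 88 other tested probes.

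Triose phosphate isomerase interconverts the triose phosphates, and its gene Tpi1 had 3 probes, all higher in hSRY-ON. ILMN_1230137 read 13.17, 13.02 and 13.23 against 14.21, 13.93 and 14.21, a difference of 0.98 ± 0.13 (SE), with an adjusted p of 0.00206 in limma. ILMN_2932359 read 10.83, 10.61 and 10.94 against 12.11, 11.93 and 12.25, a difference of 1.31 ± 0.14 (SE), with an adjusted p of 0.000893 in limma. On both of these probes the groups were well apart and the rise was close to 2-fold or more, at 1.97-fold and 2.47-fold. The third, ILMN_1231447, was dim and read 6.46, 6.29 and 6.55 against 7.04, 6.80 and 6.92, a difference of 0.49 ± 0.13 (SE), with an adjusted p of 0.0249 in limma. Its difference turned to -0.04 with scaling on the median level of reference genes and was 0.31 with scaling on their ratios. The call was also lost without hSRY-OFF replicate 1 (adjusted p = 0.0791 by limma), without hSRY-OFF replicate 2 (0.0948) and without hSRY-ON replicate 1 (0.0743).

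Gapdh encodes the dehydrogenase that yields the NADH of the pathway and is widely used as a reference gene in its own right. Its probe, ILMN_1377924, read 13.55, 13.29 and 13.34 on the hSRY-OFF arrays and 14.46, 14.23 and 14.39 on the hSRY-ON arrays. The groups did not overlap, with means of 13.39 ± 0.14 and 14.36 ± 0.12 (SD, n = 3 each). The difference of 0.97 ± 0.13 (SE) was 1.95-fold, with a limma adjusted p of 0.00198. With arrays scaled on reference genes the Gapdh difference was 0.39 (adjusted p = 0.109 by limma) and that of Tpi1 ILMN_1230137 was 0.38 (0.138), so neither passed there.

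Pgk1 encodes phosphoglycerate kinase, the first step that returns ATP. Its only probe in the table, ILMN_2797973, was detected on 0 hSRY-OFF arrays and 1 hSRY-ON array and was not tested. It read 5.69, 5.29 and 5.48 against 5.79, 5.56 and 5.03, overlapping values at the level of the background. With no filter the fit gave a Pgk1 difference of -0.02 (adjusted p = 0.976 by limma). These values give no usable level of Pgk1 in either group.

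Pgam1, the mutase that moves the phosphate of phosphoglycerate, and Pkm2, the M-type pyruvate kinase of the last ATP-yielding step, both rose. The Pgam1 probe, ILMN_2856157, read 9.64, 9.54 and 9.69 against 11.47, 10.87 and 10.99. Its means of 9.62 ± 0.08 and 11.11 ± 0.32 (SD, n = 3 each) differed by 1.49 ± 0.18 (SE), or 2.8-fold, with a limma adjusted p of 0.00116. The hSRY-ON arrays of Pgam1 were spread more widely than its hSRY-OFF arrays, replicate 1 standing highest. The Pkm2 probe, ILMN_2756041, read 10.94, 10.59 and 10.81 against 12.32, 11.72 and 12.37. Its means of 10.78 ± 0.17 and 12.14 ± 0.36 (SD, n = 3 each) differed by 1.35 ± 0.20 (SE), or 2.56-fold, with a limma adjusted p of 0.00296. On Pkm2 too the groups were apart, with hSRY-ON replicate 2 below the other hSRY-ON arrays.

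Ldha encodes the lactate dehydrogenase subunit favoured where lactate is made. Its probe, ILMN_1257965, was among the brightest on every array and read 14.68, 14.55 and 14.66 against 14.83, 14.77 and 14.89. The hSRY-ON arrays were all above the hSRY-OFF arrays, as they were for 25.4% of all tested probes, while 24.6% had all hSRY-ON arrays below. The difference of 0.20 ± 0.11 (SE, 95% interval -0.06 to 0.46) had a limma adjusted p of 0.201. It turned to -0.3 with scaling on the median level of reference genes and was 0.04 with scaling on their ratios. Of the 32 tested probes as bright on every array, 0 were called in either direction, and their differences spanned only -0.33 to 0.25. The interval for Ldha lies below the differences of the 7 bright member probes that rose, but whether probes this bright still respond in proportion to RNA was not tested.

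**Figure D2:**
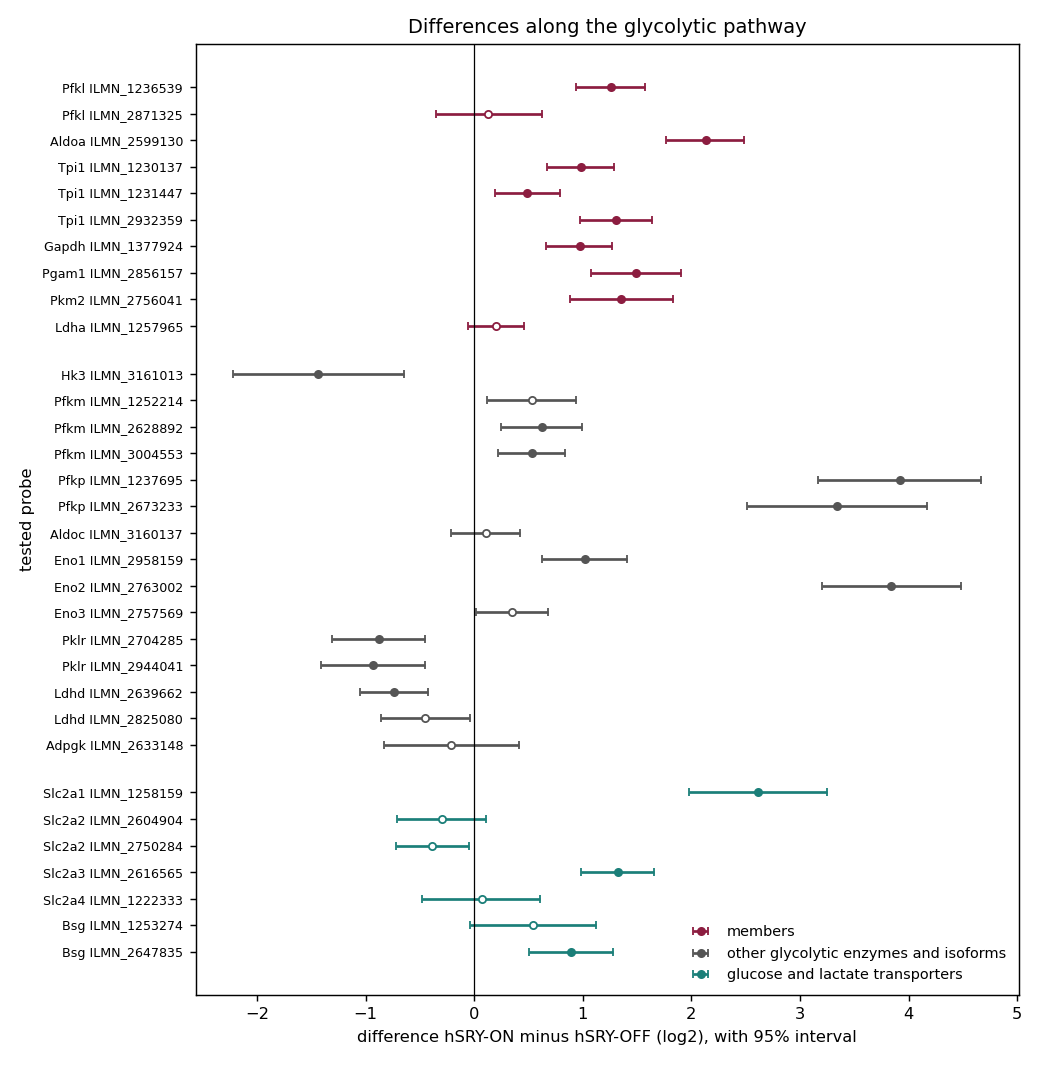
Difference in log2 intensity, hSRY-ON minus hSRY-OFF, with its 95% interval for each tested probe of the members and for probes of other glycolytic enzymes and of the glucose and lactate transporters, some enzymes being left out. Filled points passed an adjusted p of 0.05. Member probes lie between 0.13 and 2.13. With scaling on the median level of reference genes Ldha and the dim probes of Pfkl and Tpi1 turn negative. With scaling on their ratios only the dim Pfkl probe does.

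Ordered by the size of the difference, Aldoa stood first, and its ratio to Pgam1, the next, taken within each array, did not overlap between the groups (0.64 between their differences). Pgam1, Pkm2, Tpi1 ILMN_2932359 and Pfkl ILMN_1236539 followed with neighbouring gaps of 0.13, 0.05 and 0.05, each within the spread of the arrays. Tpi1 ILMN_1230137 and Gapdh formed the next pair, 0.01 apart. Neighbours in these groups cannot be put in order from 3 arrays. Aldoa was ranked first on these same arrays, so its separation from Pgam1 is no independent support for that place. The 3 Tpi1 probes differed by 0.49, 0.98 and 1.31, so an order of probes is not an order of genes.

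The arrays of a group stood in a similar order on most of the called probes. hSRY-OFF replicate 2 was the lowest of its group on all 8 called probes, and hSRY-ON replicate 2 was the lowest of its group on 7 of them. hSRY-ON replicate 1 was the highest on 6, beside 37.6% of all probes called higher. Such shares were not computed for the lowest array, and 3 of the 8 probes are of Tpi1. Measured from the hSRY-OFF mean, the median deviation of the called probes was 0.03, -0.15 and 0.10 on the hSRY-OFF arrays and 1.37, 1.04 and 1.28 on the hSRY-ON arrays. These probes were picked as higher in hSRY-ON, so the gap between the groups follows from that choice.

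**Figure D3:**
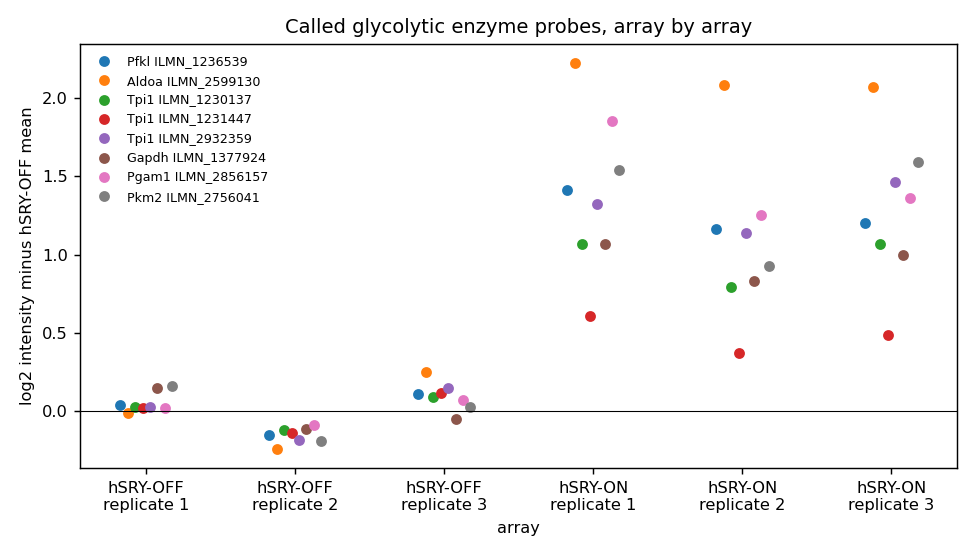
Deviation of each called glycolytic enzyme probe from its hSRY-OFF mean in log2 units, on each of the 6 arrays (1 point per probe and array). All points of the 3 hSRY-ON arrays are above 0.3, the lowest being the dim Tpi1 probe on replicate 2 at 0.37, and Aldoa is the highest on each. Scaling on the median level of reference genes lowers the hSRY-ON values and takes the dim Tpi1 probe to a difference of -0.04. Scaling on their ratios takes this probe to 0.31.

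**Figure D4:**
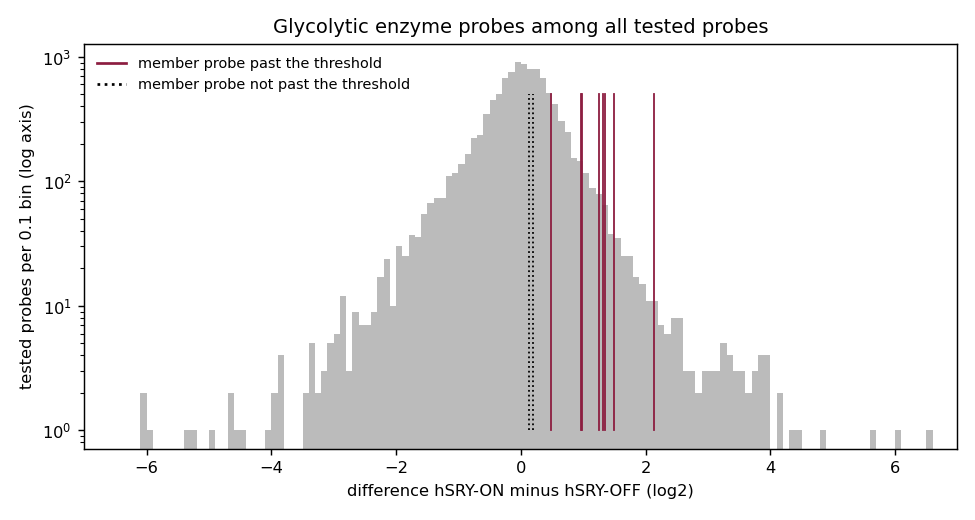
Distribution of the difference hSRY-ON minus hSRY-OFF in log2 units over all 10734 tested probes, with the number of probes per bin on a log axis and a line at each tested glycolytic enzyme probe. The 8 solid lines are the probes past the threshold, from 0.49 to 2.13. The dotted lines are Ldha and the dim Pfkl probe. Both turn negative with scaling on the median level of reference genes, and only the dim Pfkl probe does with scaling on their ratios.

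The promoters of these genes were searched on both strands for the core letters of elements bound by the hypoxia-inducible factors (ACGTG) and by Myc (CACGTG, which contains ACGTG on both strands). The RefSeq promoter windows of GRCm38.p6 were used, each of 300 bases from 250 before to 50 after a start. All 10 named genes had a window, 14 windows in all. ACGTG on either strand stood in 7 of the 10 genes, 6 of them among the 8 with a probe, and in 21.8% of all 27025 genes and 23.2% of 17492 protein-coding genes. GCGTG, the other form of the hypoxia element, stood in 4 of the 10, and in 35.2% of all genes and 41.4% of protein-coding genes. CACGTG stood in Ldha alone, and in 8.09% of all genes. By windows, ACGTG was in 8 of 14, and in 19.6% of 32851. Base composition was not matched in these shares. Of the genes that rose, Tpi1 had neither form and Pfkl had GCGTG alone. Ldha had 5 matches of ACGTG, 4 of them from its 2 CACGTG, which count on both strands. Pgk1 had 2. The stretches from 200 to 21 bases before the start are shown for the gene with the largest difference, for a gene that rose without a match, for a gene that rose with both forms, and for Ldha, with ACGTG and GCGTG on either strand in capitals. They are Aldoa, the second start (chr7:126799275-126799454, minus strand), Tpi1 (chr6:124814179-124814358, minus strand), Pgam1 (chr19:41911671-41911850, plus strand) and Ldha, the first start (chr7:46845604-46845783, plus strand).
Aldoa: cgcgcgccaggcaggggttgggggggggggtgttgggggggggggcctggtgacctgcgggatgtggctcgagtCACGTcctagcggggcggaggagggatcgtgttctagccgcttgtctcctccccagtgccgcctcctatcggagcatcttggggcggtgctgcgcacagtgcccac
Tpi1: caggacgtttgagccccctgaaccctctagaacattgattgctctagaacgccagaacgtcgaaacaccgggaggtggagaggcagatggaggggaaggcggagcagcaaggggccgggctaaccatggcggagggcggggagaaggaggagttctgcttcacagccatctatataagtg
Pgam1: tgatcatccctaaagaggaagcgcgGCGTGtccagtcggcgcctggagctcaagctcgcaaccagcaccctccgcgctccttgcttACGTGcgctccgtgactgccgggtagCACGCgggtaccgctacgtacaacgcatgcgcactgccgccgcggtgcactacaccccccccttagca
Ldha: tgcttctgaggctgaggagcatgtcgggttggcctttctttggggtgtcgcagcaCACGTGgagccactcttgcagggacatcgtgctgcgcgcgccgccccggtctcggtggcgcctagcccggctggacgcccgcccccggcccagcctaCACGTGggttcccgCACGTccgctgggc
A match is a run of letters and no evidence of binding, and no binding was measured here.

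The other enzymes of the pathway did not all move with the members. Of 18 tested probes of other glycolytic enzymes and isoforms, 6 (33.3%) were higher and 4 lower, with a median difference of -0.05. These and the following counts stand beside 15.8% higher and 17.3% lower over all tested probes. The 6 became 2 without hSRY-ON replicate 1, the 4 became 2 without hSRY-OFF replicate 1 or 2, and scaling on reference genes gave 3 higher and 7 lower. Eno1, the enolase between Pgam1 and Pkm2, rose as well. It read 13.64, 13.37 and 13.31 against 14.64, 14.16 and 14.58, a difference of 1.02 ± 0.17 (SE, limma adjusted p = 0.00455), which became 0.48 and did not pass with scaling on reference genes. Eno2, the enolase of neurons, was detected on 0 hSRY-OFF arrays and all 3 hSRY-ON arrays and was at least 9.1-fold higher with background removed as here (limma adjusted p = 0.000185). Without background correction its difference was 1.98, so this bound holds for that step only. Chosen after its values were seen, Pfkp, the platelet subunit of phosphofructokinase, rose from 7.34, 6.92 and 7.30 to 11.71, 11.24 and 10.38 on probe ILMN_1237695. This difference of 3.92 ± 0.32 (SE, limma adjusted p = 0.00029) was larger than that of any member probe, and a second Pfkp probe, ILMN_2673233, was at least 9.32-fold higher, a bound that also rests on the background step (difference of 1.86 without it).

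Pklr, the L-type pyruvate kinase, fell on both tested probes, by 0.88 ± 0.18 and 0.93 ± 0.20 (SE, limma adjusted p = 0.0109 and 0.0131), while Pkm2, coding for the same step, rose. The second of these Pklr calls was lost without hSRY-OFF replicate 1 or replicate 2. The Hk1 probe was detected on 1 array and was not tested. Ldhd, which oxidises D-lactate, fell by 0.74 (limma adjusted p = 0.00586), while its second tested probe differed by -0.45 (0.085). Because these are whole livers, fewer cells of a type and less RNA per cell cannot be told apart.

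Glucose enters the cell through the transporters of the Slc2a family. Among the transporters 3 of 7 tested probes were higher and 0 lower, or 2 lower with scaling on reference genes. Slc2a1, the widely expressed glucose transporter, read 9.23, 9.0 and 9.39 against 12.05, 11.19 and 12.22, a difference of 2.61 ± 0.27 (SE, limma adjusted p = 0.000722), with the groups far apart. The probes of Slc2a2, the hepatocyte transporter, differed by -0.30 and -0.39 and did not pass (limma adjusted p = 0.225 and 0.0726). The probes of Slc16a3, the lactate exporter, were detected on 0 arrays.

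Of the regulators, 5 of 14 tested probes (35.7%) were higher and 2 lower. The 5 became 3 without hSRY-OFF replicate 1 and 2 with scaling on reference genes, where 4 were lower. Gckr, a regulator of glucose use in hepatocytes, fell by 2.38 ± 0.25 (SE, limma adjusted p = 0.000758), from 11.09, 11.31 and 11.31 to 8.34, 8.83 and 9.38. Pdk1, a kinase that closes pyruvate dehydrogenase, rose by 1.12 ± 0.25 (SE, limma adjusted p = 0.013), a call lost without hSRY-OFF replicate 1. Pdhb, a subunit of pyruvate dehydrogenase itself, rose by 0.65 ± 0.11 (SE, limma adjusted p = 0.00534), which became 0.10 and did not pass with scaling on reference genes. Pdk4, named after its values were seen, rose by 2.36, or by 1.79 with scaling on reference genes. Its call was kept in all 21 alternatives run on single probes. Pfkfb3, which makes the activator of phosphofructokinase, was detected on 0 arrays.

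Of 4 tested probes of enzymes of glucose synthesis that glycolysis does not share, 1 was higher and 2 lower (1 lower without hSRY-OFF replicate 1). Fbp2, the muscle fructose bisphosphatase, was detected on 1 hSRY-OFF array and all 3 hSRY-ON arrays and rose by 3.52 ± 0.28 (SE, limma adjusted p = 0.000266), by 1.88 without background correction, or by 3.17 where an array that did not detect it was set to its lowest detected signal. Pcx, the pyruvate carboxylase that also feeds the citric acid cycle, fell by 0.91 ± 0.14 (SE, limma adjusted p = 0.00369). Fbp1, the liver fructose bisphosphatase, named after its values were seen, fell by 0.90 ± 0.20 (SE, limma adjusted p = 0.0129), a call lost without hSRY-OFF replicate 1. Among the side branches 3 of 17 probes (17.6%) were higher, near the 15.8% of all tested probes, and 5 were lower (1 higher and 8 lower with scaling on reference genes). Psat1, of serine synthesis, rose by 1.38 ± 0.24 (SE, limma adjusted p = 0.00539), and Khk, which phosphorylates fructose, fell by 1.15 ± 0.15 (SE, limma adjusted p = 0.00157).

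Among transcription factors and oxygen sensors that act on glycolytic genes, 7 of 14 tested probes (50%) were higher and 1 lower. Of the 7, 3 were probes of 1 gene, Egln1 (named after its values were seen), and without hSRY-OFF replicate 1, 2 or 3 or hSRY-ON replicate 1 the 7 became 3, 4, 4 and 3, with 3 under scaling on reference genes and 4 with no filter. Mlxipl, which encodes the glucose-responsive factor ChREBP, fell by 1.70 ± 0.11 (SE, limma adjusted p = 0.000151), from 10.54, 10.52 and 10.46 to 8.76, 8.77 and 8.90. Myc was detected on 0 hSRY-OFF arrays and was at least 2.65-fold higher with background removed as here (limma adjusted p = 0.0033), its difference being 0.74 without that step and 1.36 with scaling on reference genes. Chosen after their values were seen, Hif1a differed by -0.02 ± 0.21 (SE, limma adjusted p = 0.961), and Egln3, an oxygen sensor that is itself a target of hypoxia-inducible factors, rose by 2.08 ± 0.36 (SE, limma adjusted p = 0.00517). Also named after their values were seen, Arnt rose by 0.97, which became 0.42 and did not pass with scaling on reference genes. The tested Epas1 probes (-0.05 and 0.14) and Egln2 (-0.06) did not pass. The array reads RNA, so it gives no measure of the HIF1A protein. Any part of oxygen, hypoxia-inducible factors or Myc in the glycolytic values was not tested.

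Genes in common use as references outside glycolysis were read beside Gapdh. Of 22 tested probes 6 were higher and 0 lower, with a median difference of 0.19. The 6 became 2 without hSRY-OFF replicate 1 or replicate 2, and scaling on these genes gave 0 higher and 6 lower. Hprt1 rose by 0.68 ± 0.11 (SE, limma adjusted p = 0.00392), from 12.49, 12.40 and 12.51 to 13.11, 13.21 and 13.13. Scaled on the reference genes themselves, Hprt1 differed by 0.04 and did not pass. Scaling the arrays on the median level of these probes moved the median of all tested probes to -0.54, and scaling on their ratios, chosen after seeing the data, moved it to -0.19. The median of the member probes lay 1.03 above that median, beside 1.10 as reported, but a scaling that moves all probes of an array alike cannot change this distance.

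**Figure D5:**
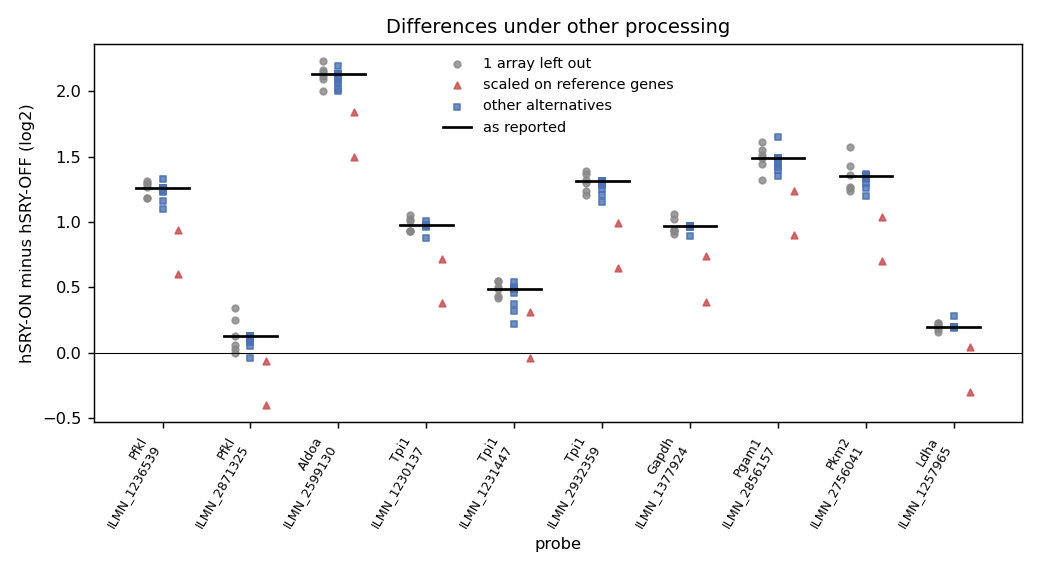
Difference in log2 intensity of each tested glycolytic enzyme probe, hSRY-ON minus hSRY-OFF, as reported and under each alternative processing, with the scalings on reference genes as triangles. Aldoa stays between 1.5 and 2.23. With scaling on the median level of reference genes Ldha is at -0.3 and the dim probes of Pfkl and Tpi1 at -0.4 and -0.04. With scaling on their ratios Ldha is at 0.04 and these dim probes at -0.06 and 0.31.

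Markers of other cell types moved in part with the groups. Of 14 tested erythroid probes 7 (50%, beside 15.8% of all) were higher and 0 lower, 6 of these calls being lost when some single array was left out, and the summed erythroid intensity was 66210 to 87210 on hSRY-OFF and 86830 to 99770 on hSRY-ON arrays, so the groups overlapped. Red cell precursors still occur in the liver at this age. Of 12 hepatocyte probes 1 was higher and 4 lower, with sums of 217000 to 220200 against 203600 to 212200, so the labelled tissue was plain on all 6 arrays. Stellate cell and fibroblast markers summed to 15510 to 17550 against 23920 to 25860, with 5 of 13 higher and 3 lower. Of the 5, named after their values were seen, 4 were probes of Acta2, the smooth muscle actin (2.45 to 3.12), while Lrat, Lum and Reln were the 3 lower (-1.66, -1.01 and -0.66). Endothelial markers had 4 of 11 higher and 1 lower, Kupffer cell markers 1 of 13 higher and 4 lower, and neutrophil markers 0 of 13 in either direction, with overlapping sums for all of these lists. Of 11 skeletal muscle markers 8, among them Ckm and Acta1, were detected on 0 arrays, and 0 of the 2 tested probes passed. Biliary markers had 0 of 2 tested probes past the threshold and pancreatic acinar markers 1 of 2 higher, with acinar sums of 649.6 to 767.8 against 896.8 to 1644. The part of these cell types in the higher glycolytic values was not tested.

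Tested probes of other symbols whose pattern over the 6 arrays was most like the mean of the member probes were those of Eif5, Uck2, Polr1e, Nnmt and Col5a1, with Pearson r from 0.9952 to 0.9982. These values are a description over 6 arrays that fall into 2 groups, and any probe with an even group difference scores high.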

How the data were processed

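The authors hybridised biotin-labelled cRNA from whole liver of male P6 pups to Illumina MouseRef-8 v2.0 BeadChips, with 3 mice per group according to the study's methods. The labels do not say whether the mice of a group came from separate litters. The p-values set the group difference against the spread between these samples only. In the paper's account, oocyte Cre recombines the cassette whatever the pup's own Ddx4-Cre status. Pups with an intact cassette would then have other mothers than hSRY-ON pups, so mother and litter cannot be told apart from the group. The deposited intensities were linear, neither background-subtracted nor normalized (lowest value 108), and came with a deposited detection p-value per probe and array. The study's methods name TCC, a count package, for normalization and testing, and the submitters' processing notes name limma. Scanner settings and genome build were not given in the sources used here. Slide and scan date were not used here, so batch effects were not tested.

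Background was removed with normexp inferred from the detection p-values (nec, offset 16), followed by quantile normalization and log2 transformation, in limma 3.58.1 and R 4.3.3. The offset shrinks differences of dim probes. Quantile normalization was first run on the log2 values, and after its calls had been seen the linear values were used instead. Tested were probes that reached a detection p below 0.01 on 3 or more of the 6 arrays, fitted with lmFit and eBayes without covariates, two-sided, with Benjamini-Hochberg adjustment and a threshold of 0.05. Probes of a gene were kept apart and levels were not compared between probes. A probe detected on 0 arrays of a group was given as a bound, the mean of the brighter group against, per array of the other, the higher of the lowest detected signal and the probe's own signal. Probe sequences were not used here, so cross-hybridisation with near-identical gene copies, which Gapdh, Tpi1, Pgam1, Ldha and Eno1 have, could not be examined. The procedure was run on simulated data with far fewer changed probes than were called here, so that run does not bear on the choice of scaling.

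The member genes and all lists were chosen with earlier results of these data known. Named were all members; Eno1, Hk1, Pklr, Slc2a1, Slc2a2, Slc16a3, Pdk1 and Pfkfb3; the called probe with the smallest p in each direction of each pathway or reference list; and the 5 symbols most like the members. Some genes that this rule names are not reported here. Other names are said to be chosen after their values were seen. Alternatives covered background, offset, scaling, filter, variance model, array weights, the replicate block, each array left out, the threshold and averaging of probes.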

Additional observations from a re-analysis of the deposited data

How the results depend on the processing

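The 8 member probes called higher became 5 with scaling on reference genes and were 7 or 8 under the other alternatives run on single probes. With probes averaged per symbol 6 of 7 member symbols were higher, and the share over all 8225 tested symbols is not given here. Leaving out each array in turn gave 7 to 8 member calls and a median difference of 1.06 to 1.18. The median difference of 1.12 became 0.50 with scaling on reference genes, 0.84 with scaling on the ratios of reference probes, an alternative chosen after seeing the data, and 0.97 with probes averaged. Over the whole table, where 1700 probes were higher and 1854 lower, scaling on reference genes gave 435 and 5147 (4.05% and 48% of tested probes), scaling on ratios gave 801 and 2497 (7.46% and 23.3%), and an adjusted p under 0.01 gave 693 and 972. Leaving out each array gave 856 to 1822 higher and 965 to 2125 lower, with 856 and 965 without hSRY-OFF replicate 1, 950 and 1009 without hSRY-OFF replicate 2, and 1075 higher without hSRY-ON replicate 1. Quantile normalization of the log2 values, which had been run first, gave 1700 and 1851 with 8 members higher. The dim Pfkl probe turned to -0.40 with scaling on reference genes, -0.06 with ratios and -0.04 with array weights, the dim Tpi1 probe to -0.04 and Ldha to -0.30 with scaling on reference genes. The dim Tpi1 probe also missed the threshold without background correction (adjusted p = 0.0594 by limma), with median scaling (0.0579) and with ratios (0.22). Aldoa, Pgam1, Pkm2, Pfkl ILMN_1236539 and Tpi1 ILMN_2932359 passed in all 21 alternatives run on single probes at a threshold of 0.05, Aldoa with 1.5 to 2.23. Of 322 recomputed counts of the pathway and reference lists, 278 stayed within 1.5 times and 44 did not. Both scalings shift all probes of an array alike. Scaling on reference genes follows the median level of the reference probes, and scaling on ratios follows the median of their ratios. The median of all tested probes became -0.54 and -0.19, while the reference probes had a median difference of 0.19 as reported. The cause of the other changes was not tested.

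Same-numbered arrays of the groups deviated together with correlations of 0.025, 0.095 and 0.052, and 2 of 6 arrays correlated best with their own number, so the numbers were not taken as pairs. With the replicate block 8 member probes were higher, with a median difference of 1.12, and the whole table had 1565 higher and 1645 lower. With 3 arrays per group, dim probes such as those of Pgk1 and Hk1 give no usable difference, and the brightest probes, Ldha among them, span a narrow range.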
